A study of Mus musculus with 12 samples.

Results

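The Hox cluster genes were taken as every probe set that names 1 gene symbol only, that symbol being Hoxa, Hoxb, Hoxc or Hoxd followed by a number. This gave 48 of the 45037 probe sets tested, which read 33 of the 39 mouse Hox genes: 9 of the HoxA cluster, 9 of HoxB, 7 of HoxC and 8 of HoxD. By paralog number, 10 were anterior (1 to 4), 9 middle (5 to 8) and 14 posterior (9 to 13). The others were not analysed here. No filter on low values was used, so all 33 genes were tested.

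RNA was measured on 12 Affymetrix 430 2.0 mouse arrays, 2 per group, from wild-type (WT) and Terc-/- (KO) cells of C57BL/6 background. Terc is the RNA template of telomerase, and the KO lines came from late generations of Terc-deficient mice, labelled G3/4. The day 0 groups were undifferentiated ES cells grown on mouse embryonic fibroblast feeders, WT lines N12 and N33 at passage 12 and KO lines F35 and A49 at passage 11. The day 8 and day 15 groups were WT and KO cells differentiated through embryoid bodies, cell aggregates made in hanging drops without LIF, and the labels do not say which lines they came from. The titles call the 2 arrays of a group biological replicates, and the p-values cover only the spread between these arrays. No probe set names Terc alone, so the deletion was not checked on these arrays. The ES cell gene *Pou5f1* read 6512 to 7436 at day 0, on arrays whose medians were 114 to 117.

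Hox genes encode homeodomain transcription factors that give cells their place along the head-to-tail axis. Genes at the 3′ end of a cluster (low numbers) are switched on first and reach farthest forward in the embryo, and those at the 5′ end follow later and farther back. Retinoic acid, Wnt, FGF and Cdx factors open the clusters, Polycomb complexes keep them silent in ES cells, and Trithorax complexes keep them active. The proteins bind DNA together with Pbx, Meis and Prep partners.

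The stretches of 250 bases before the RefSeq gene start (GRCm38.p6) are shown for 5 Hox genes called in opposite directions in WT cells between days 8 and 15. *Hoxb1* and *Hoxd1* fell, and *Hoxa2*, *Hoxd3* and *Hoxd9* are 3 of the 9 genes that rose and have a window. Capitals mark matches, on either strand, to TGATNNAT (a site shared by Hox and Pbx proteins, N standing for any base) or to TTTATG (a Cdx site).
*Hoxb1*, chr11:96365508-96365757, + strand: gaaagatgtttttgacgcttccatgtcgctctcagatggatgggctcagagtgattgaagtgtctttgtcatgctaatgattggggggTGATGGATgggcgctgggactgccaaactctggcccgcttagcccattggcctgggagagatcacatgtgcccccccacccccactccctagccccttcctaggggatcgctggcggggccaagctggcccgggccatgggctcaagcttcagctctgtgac
*Hoxd1*, chr2:74762730-74762979, + strand: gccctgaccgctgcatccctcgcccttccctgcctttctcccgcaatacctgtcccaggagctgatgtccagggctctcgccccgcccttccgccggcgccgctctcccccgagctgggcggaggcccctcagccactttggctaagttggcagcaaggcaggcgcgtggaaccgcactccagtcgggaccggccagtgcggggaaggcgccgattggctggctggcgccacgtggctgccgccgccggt
*Hoxa2*, chr6:52164832-52165081, - strand: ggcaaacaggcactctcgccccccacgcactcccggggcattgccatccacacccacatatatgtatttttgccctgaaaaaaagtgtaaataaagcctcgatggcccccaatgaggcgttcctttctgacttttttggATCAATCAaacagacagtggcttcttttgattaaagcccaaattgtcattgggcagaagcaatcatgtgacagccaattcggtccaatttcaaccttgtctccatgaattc
*Hoxd3*, chr2:74711743-74711992, + strand: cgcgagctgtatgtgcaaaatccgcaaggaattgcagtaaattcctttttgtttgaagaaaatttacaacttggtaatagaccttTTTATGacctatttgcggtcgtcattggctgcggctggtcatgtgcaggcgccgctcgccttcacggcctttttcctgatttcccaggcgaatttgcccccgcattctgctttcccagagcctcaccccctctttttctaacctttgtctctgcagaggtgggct
*Hoxd9*, chr2:74697513-74697762, + strand: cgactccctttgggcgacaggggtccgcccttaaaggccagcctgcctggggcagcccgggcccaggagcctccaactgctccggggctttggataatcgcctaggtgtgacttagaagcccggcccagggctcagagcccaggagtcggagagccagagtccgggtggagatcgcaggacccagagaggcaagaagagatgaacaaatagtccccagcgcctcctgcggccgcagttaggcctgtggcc
TGATNNAT begins 162 bases before the start of *Hoxb1* and 111 bases before that of *Hoxa2*, and TTTATG begins 165 bases before the start of *Hoxd3*. *Hoxd1* and *Hoxd9* hold neither run of letters in this window, nor do the other risers *Hoxa10*, *Hoxa11*, *Hoxb4*, *Hoxc4*, *Hoxd8* and *Hoxd10*, so 2 of the 9 hold a match. Among 24 windows of 22 Hox genes, TGATNNAT occurred in 4 (16.7%), against 7.68% of all 32851 RefSeq windows of this length, and TTTATG in 5 (20.8%) against 10.8%. The median ratio of observed to expected CG was 0.72 in the Hox windows and 0.37 in all windows. Of the 33 measured genes, 19 had a window.

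Intensities are linear values without a unit, read at the brightest probe set of each gene, and differences are given on the log2 scale with their standard error (SE). A call means an adjusted p under 0.05 in limma. Scaling differed between the 4 arrays of day 0 and the other 8 (medians 114 to 117 against 50.6 to 53.1), so day 0 was compared between genotypes only. On each array 9 to 16 of the 33 Hox genes lay above the array median. Since detection calls were not used, no Hox gene was shown to be above background, whether it lay above the median or below. The second WT array of day 8 stood apart from the first: 7 Hox genes were at least 1.8-fold higher on it (*Hoxa10*, *Hoxb9*, *Hoxc4*, *Hoxc8*, *Hoxc10*, *Hoxd8* and *Hoxd10*) and 2 were at least 1.8-fold lower (*Hoxb1* and *Hoxd1*). No Hox gene differed that much between the 2 KO arrays of day 8. Of all 18193 genes, 4.5% differed that much between the WT arrays of day 8 and 0.236% between the KO arrays.

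In undifferentiated ES cells no Hox gene was called different between KO and WT. None of 33 was called by limma, where 0.033% of all genes were, and none passed at an unadjusted p under 0.05. The study's general statistics name a t-test for paired groups, but its array methods name no test. An unpaired t-test on log2 values (here the methods' t-test) called 1 gene unadjusted, with 8.6% of all genes, and 0 after adjustment. The median difference was 0.10 (KO minus WT), against 0.04 over all genes. The highest was that of *Hoxc8*, a gene of the thoracic region, which read 97.9 and 129 on the WT arrays and 155 and 242 on the KO arrays. The KO arrays of *Hoxc8* lay above both WT arrays, and the difference of 0.79 ± 0.42 did not pass (adjusted p = 0.676). Summed fibroblast and mesenchyme markers ran the same way, at 5140 and 7752 on the WT arrays and 8878 and 13996 on the KO arrays. Some other gene lists ran in the same order, while others did not. Lateral plate and limb markers summed to 594 and 614 in WT and 646 and 713 in KO cells. Retinoic acid genes summed to 4801 and 5076 in WT and 5924 and 6754 in KO cells. The part of any of these lists in the *Hoxc8* values was not tested.

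At day 8 the genes that differed lay in the HoxB cluster. *Hoxb1*, the first gene of its cluster and a marker of hindbrain rhombomere 4, read 54.9 and 27.8 in WT cells and 16.2 and 15.9 in KO cells. Both KO values were below both WT values, and the WT arrays differed from each other by more than the lower one did from the KO arrays. The difference was -1.28 ± 0.26 (adjusted p = 0.0466). *Hoxb5*, a gene of the neck and upper trunk, read 35.9 and 38.5 in WT cells and 19.1 and 25.4 in KO cells. The groups of *Hoxb5* did not overlap, and the difference was -0.76 ± 0.15 (adjusted p = 0.0387). These 2 of 33 genes were lower in KO cells, and 0.77% of all genes were. The neighbours *Hoxb2*, *Hoxb4* and *Hoxb6* had differences of -0.62 ± 0.25, -0.61 ± 0.20 and -0.61 ± 0.30 that did not pass. *Hoxb3* differed by -0.12 ± 0.14 at its brightest probe set and by -0.68 ± 0.20 at the other. *Hoxb7*, *Hoxb9* and *Hoxb13* differed by 0.22 ± 0.15, -0.21 ± 0.24 and 0.24 ± 0.21. None of these passed, and the lower values did not extend over the whole cluster.

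Outside HoxB, none of the 24 genes was called at day 8, and the cluster medians were 0.05 in HoxA, 0.10 in HoxC and -0.15 in HoxD, against -0.61 in HoxB. Over all 33 genes the median was -0.12 (0.03 over all genes). It was -0.26 without the first WT array and 0.14 without the second, so its sign rested on 1 array. The count of genes called lower was 6 without the first WT array, 1 without the second (*Hoxb1*) and 0 without either KO array. Of all genes 4.55% and 0.643% were called lower without the first and the second WT array, and at most 0.0055% without a KO array.

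By day 15 the KO arrays read 11 of 33 Hox genes lower by the limma call and none higher, while 8.31% of all genes were called lower and 8.77% higher. Of 48 probe sets 17 were called lower, against 6.45% of all probe sets. The called genes were 5 of 10 anterior, 3 of 9 middle and 3 of 14 posterior ones. By cluster they were 2 of 9 in HoxA, 4 of 9 in HoxB, 2 of 7 in HoxC and 3 of 8 in HoxD. The median difference was -0.42, against 0.04 over all genes, with -0.63 for anterior, -0.11 for middle and -0.17 for posterior genes. Whether positions or clusters differ was not tested. For 19 genes both KO arrays lay below both WT arrays, which held for 25.8% of all genes, and for 2 genes (*Hoxa3* and *Hoxa5*) both lay above, as for 33.1% of all genes. *Hoxa5* read 87.5 and 106 in WT cells and 129 and 117 in KO cells at its brightest probe set, a difference of 0.35 ± 0.15 that did not pass (adjusted p = 0.166). By the group means 9 genes were at least 1.8-fold lower, against 5.35% of all genes. The count of 11 at day 15 fell to 5 without the first WT array, 7 without the second, 1 without the first KO array (*Hoxa2*) and 5 without the second, with 4.72%, 7.96%, 2.79% and 5.32% of all genes called lower in these fits, where the lone array left is assumed to vary like the other groups. Without the first KO array the Hox share was thus close to that of all genes. These are bulk samples, so fewer cells that express a Hox gene and less RNA per cell cannot be told apart.

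**Figure D1:**
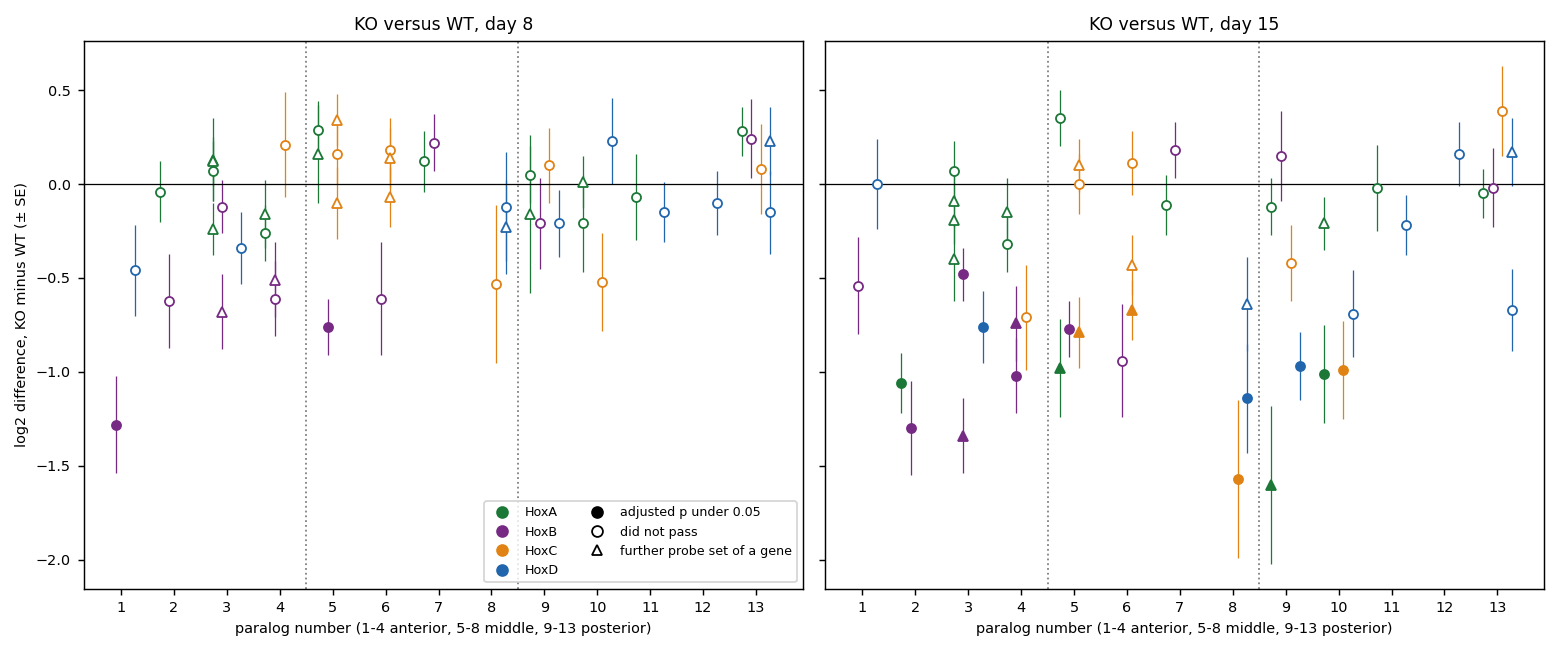
Log2 difference between KO and WT cells (y axis, KO minus WT, bars SE) of the 48 Hox probe sets by paralog number (x axis) at day 8 (left) and day 15 (right), coloured by cluster; circles are the brightest probe set of a gene, triangles its further probe sets, and filled symbols passed at an adjusted p under 0.05. All 17 filled symbols at day 15 lie below 0, between paralog numbers 2 and 10.

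Among the anterior genes, the largest difference at day 15 was that of *Hoxb2*, a gene of the hindbrain. It read 386 and 214 in WT cells and 112 and 122 in KO cells. Every KO array lay below both WT arrays, and the difference was -1.30 ± 0.25 (adjusted p = 0.00662). *Hoxa2*, which patterns the second pharyngeal arch, read 12.9 and 16.7 in WT cells and 6.95 and 7.11 in KO cells (-1.06 ± 0.16, adjusted p = 0.00192). Its groups did not overlap, but all 12 arrays read it below their lower quartile, and the difference was -0.26 with 32 added. *Hoxb4*, a gene of the hindbrain and neck, also acts in blood stem cells. It read 234 and 180 in WT cells and 90.2 and 113 in KO cells (-1.02 ± 0.20, adjusted p = 0.0069). The lower WT array of *Hoxb4* was well above the higher KO array. Its second probe set also passed, at -0.74 ± 0.20.

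*Hoxd3* read 29.8 and 39.3 in WT cells and 20.5 and 19.9 in KO cells (-0.76 ± 0.19, adjusted p = 0.0258). The groups did not overlap. *Hoxb3*, like *Hoxd3* a gene of the neck vertebrae and hindbrain, read 125 and 105 in WT cells and 83.9 and 80.3 in KO cells (-0.48 ± 0.14, adjusted p = 0.0395), and its other probe set showed a larger difference, -1.34 ± 0.20. *Hoxc4* read 162 and 149 in WT cells against 102 and 87.7 in KO cells, without overlap. Its difference of -0.71 ± 0.28 did not pass. *Hoxb1*, which was lower at day 8, read 18.2 and 23.5 in WT cells and 16.0 and 12.6 in KO cells at day 15 (-0.54 ± 0.26, adjusted p = 0.22).

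Among the middle genes, *Hoxc8* differed most at day 15. It read 233 and 236 in WT cells and 76.6 and 81.1 in KO cells, a difference of -1.57 ± 0.42 (adjusted p = 0.0401). Its arrays agreed closely within each group, and the SE is wide because the fit pools the spread of all 6 groups, the WT arrays of day 8 included (58.3 and 167). *Hoxd8* read 184 and 200 in WT cells and 91.7 and 83.02 in KO cells (-1.14 ± 0.29, adjusted p = 0.0293). *Hoxb5* read 44.4 and 38.7 in WT cells and 23.5 and 25.2 in KO cells, a difference of -0.77 ± 0.15 (adjusted p = 0.00652) that was close to that of day 8. *Hoxb6* read 102 and 42.8 in WT cells and 32.6 and 36.3 in KO cells, and with the WT arrays so far apart the difference of -0.94 ± 0.30 did not pass (adjusted p = 0.0685).

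Among the posterior genes, *Hoxa10*, *Hoxc10* and *Hoxd9* were lower in KO cells. *Hoxa10*, a gene of the lumbar spine and the uterus, read 22.6 and 34.3 in WT cells and 15.3 and 12.5 in KO cells (-1.01 ± 0.26, adjusted p = 0.0295). *Hoxc10*, a gene of the lumbar region and hindlimb, read 179 and 176 in WT cells and 97.3 and 82.5 in KO cells (-0.99 ± 0.26, adjusted p = 0.0309). *Hoxd9*, a gene of the posterior trunk and limbs, read 256 and 231 in WT cells and 116 and 132 in KO cells (-0.97 ± 0.18, adjusted p = 0.00574). In none of the 3 did the groups overlap. *Hoxd10* and *Hoxd13*, limb genes, had differences of -0.69 ± 0.23 and -0.67 ± 0.22 that did not pass, and *Hoxa11* and *Hoxa13* lay near 0, at -0.02 ± 0.23 and -0.05 ± 0.13. The highest value of the family was 0.39 ± 0.24, for *Hoxc13*, and it did not pass.

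Within a cluster the genes called lower at day 15 were neighbours in HoxB, where *Hoxb2*, *Hoxb3*, *Hoxb4* and *Hoxb5* passed in a row. In HoxD, *Hoxd3*, *Hoxd8* and *Hoxd9* passed, with only *Hoxd4* among them, which no probe set names alone. The probe sets shared by *Hoxd4* and *Hoxd3* differed by -0.35 (adjusted p = 0.104) and -0.21 (adjusted p = 0.632) at day 15, and neither passed. In HoxA and HoxC the called genes, read at their brightest probe sets, were not adjacent among the measured ones. The 4 genes *Hoxa5*, *Hoxa9*, *Hoxc5* and *Hoxc6* passed only on a dimmer probe set, and they are named because of it, after their values were seen. *Hoxa9*, a gene of the posterior trunk and of blood progenitors, read 95.6 and 175 in WT cells and 47.6 and 38.3 in KO cells on its dimmer probe set (-1.60 ± 0.42, adjusted p = 0.0372), but -0.12 ± 0.15 on its brightest. *Hoxa5* showed -0.98 ± 0.26 on the dimmer one and 0.35 ± 0.15 on the brightest. *Hoxc5* and *Hoxc6* showed -0.79 ± 0.19 and -0.67 ± 0.16 on a dimmer probe set, and 0.00 ± 0.16 and 0.11 ± 0.17 on their brightest. Counted by any probe set, 15 of 33 genes were lower in KO cells at day 15. This way of counting gives genes with several probe sets, here 11 of the 33, more than 1 occasion to pass. The share of all genes counted in this way is not given here.

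In WT cells 12 of 33 Hox genes rose between day 8 and day 15, and 2 anterior genes, *Hoxb1* and *Hoxd1*, fell. Of all genes 9.66% rose and 11.3% fell, and of 48 probe sets 20 rose, against 6.89% of all. The genes that rose were 5 anterior, 1 middle and 6 posterior. For 23 genes both arrays of day 15 lay above both of day 8, as did those of 28.6% of all genes. The median change was 0.41, against 0.01 over all genes.

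*Hoxc10* rose most, from 44.5 and 88.9 at day 8 to 179 and 176 at day 15, a change of 1.5 ± 0.26 (adjusted p = 0.00349). *Hoxd8* rose by 1.35 ± 0.29 from 49.4 and 116, *Hoxc4* by 1.29 ± 0.28 from 45.3 and 89.3, and *Hoxd10* by 1.29 ± 0.23, from 13.9 and 26.2 to 51.0 and 42.5. For each of these the first WT array of day 8 was about as far below the second as the second was below day 15, or farther. *Hoxa2* read 6.5 and 6.46 at day 8, near the bottom of the array and not shown to be above background, and its change of 1.18 ± 0.16 became 0.28 with 32 added to every intensity. *Hoxa10* rose by 1.11 ± 0.26, *Hoxd9* by 0.96 ± 0.18, *Hoxd3* by 0.90 ± 0.19, *Hoxb4* by 0.87 ± 0.20 and *Hoxb3* by 0.66 ± 0.14. *Hoxa11*, a limb and kidney gene, rose by 0.80 ± 0.23 from 27.6 and 31.9 to 44.0 and 60.6, and *Hoxc9* rose by 0.75 ± 0.20 from 71.7 and 115 to 144 and 163.

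The pair that fell lie at the anterior ends of their clusters. *Hoxd1* read 87.8 and 47.5 at day 8 and 24.2 and 23.6 at day 15 (-1.44 ± 0.24, adjusted p = 0.00287). *Hoxb1* read 54.9 and 27.8 at day 8 (-0.92 ± 0.26 by day 15, adjusted p = 0.0368). Both were higher on the WT array of day 8 on which the later genes were lower. *Hoxc8* changed by 1.25 ± 0.42 and *Hoxb2* by 0.61 ± 0.25 in WT cells, and neither passed (adjusted p = 0.0805 and 0.131). The count of 14 changed genes was 8 without the first WT array of day 8 or without the first of day 15, where 15.6% and 11.1% of all genes were called, and 1 when only the 4 WT arrays of days 8 and 15 entered the fit, where 1.15% were.

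**Figure D2:**
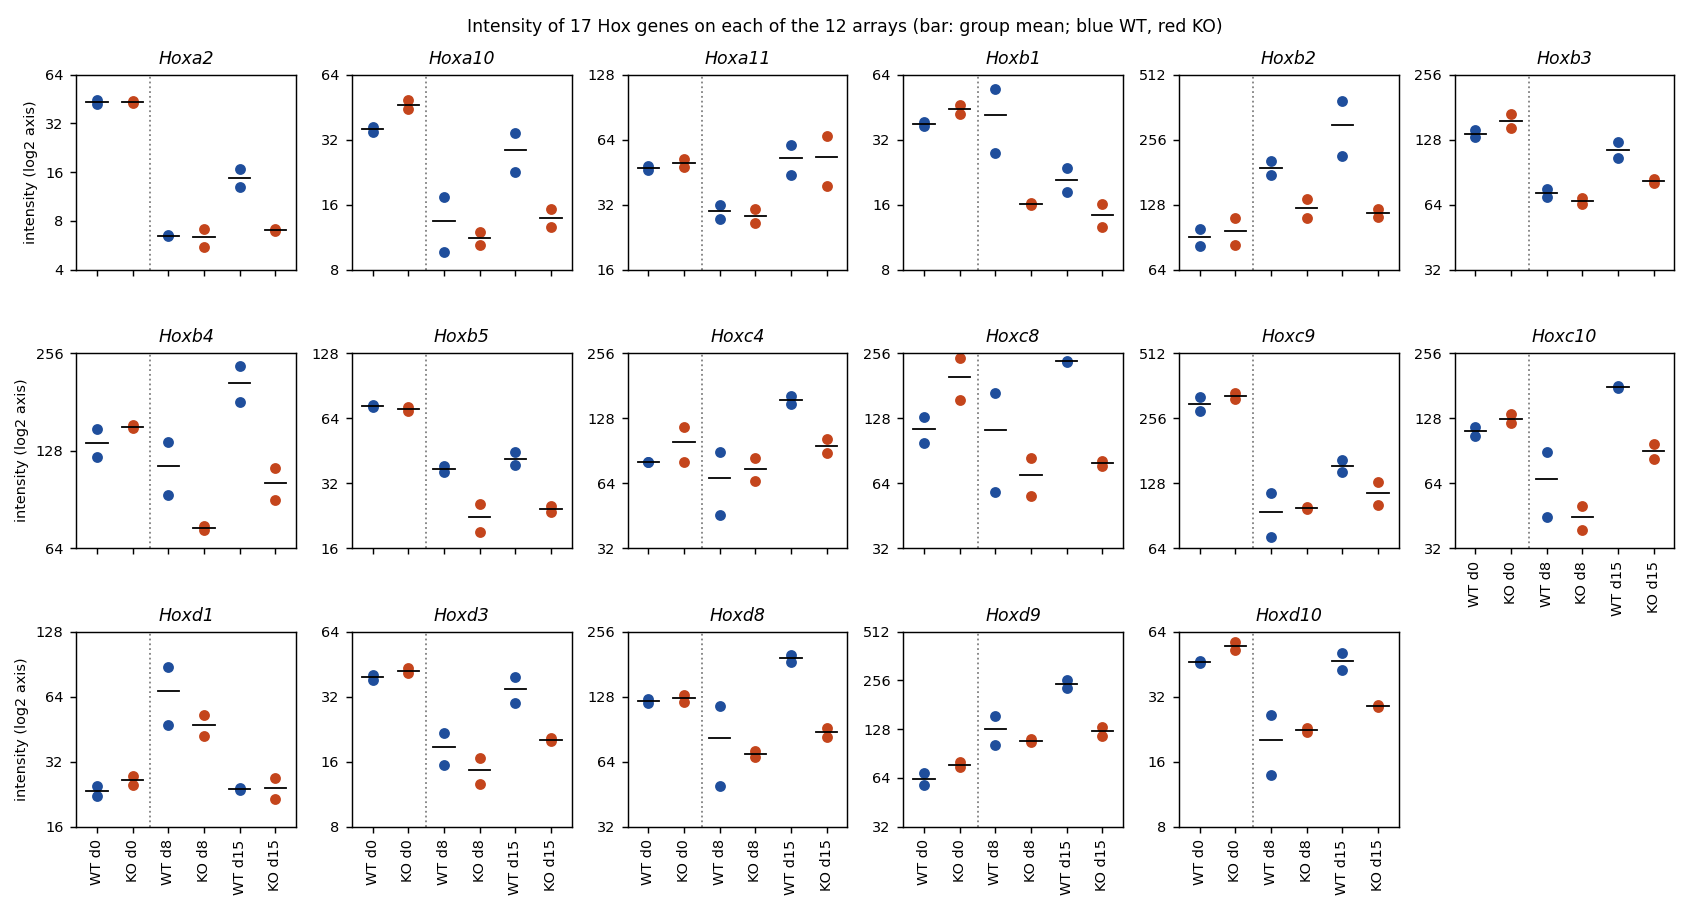
Intensity (y axis, log2 scale) of the 17 Hox genes that passed at least 1 test, on each of the 12 arrays (points, WT blue, KO red) with the group mean (bar); the dotted line parts the day 0 arrays, which were scaled apart. At day 15 the WT points of *Hoxc8* (233 and 236) and *Hoxc10* (179 and 176) nearly coincide and lie above the KO points, while *Hoxa11* overlaps between genotypes.

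In KO cells no Hox gene was called between day 8 and day 15 by limma, where 0.0275% of all genes were called. At an unadjusted p under 0.05, 5 were higher at day 15 and 1 was lower, against 5.89% and 5.64% of all genes. The methods' t-test called 4 unadjusted, where it called 12.6% of all genes, and 0 adjusted, and limma on the 4 KO arrays alone called 2, with 4.18% of all genes. The median change was 0.16, against 0.00 over all genes, and 28 of 33 changes were above 0. *Hoxc10* read 49.98 and 38.7 at day 8 and 97.3 and 82.5 at day 15, without overlap, a change of 1.03 ± 0.26 (adjusted p = 0.231). *Hoxa11* read 30.5 and 26.2 at day 8 and 66.8 and 39.1 at day 15 (0.86 ± 0.23), about the change of WT cells. *Hoxd1* read 52.3 and 42.1 at day 8 and 26.8 and 21.4 at day 15 (-0.97 ± 0.24), and at day 15 the genotypes differed by 0.00 ± 0.24. Among other genes that rose in WT cells, the KO change was 0.16 ± 0.16 for *Hoxa2*, 0.19 ± 0.18 for *Hoxd9*, 0.33 ± 0.29 for *Hoxd8* and 0.36 ± 0.28 for *Hoxc4*, and the direct test against the WT change called none of these 4 (adjusted p = 0.0953, 0.258, 0.357 and 0.386). All 12 genes that rose in WT cells had a KO change above 0, and they are among the 28 of 33 that did. The matching share among all genes that rose in WT cells is not given here.

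**Figure D3:**
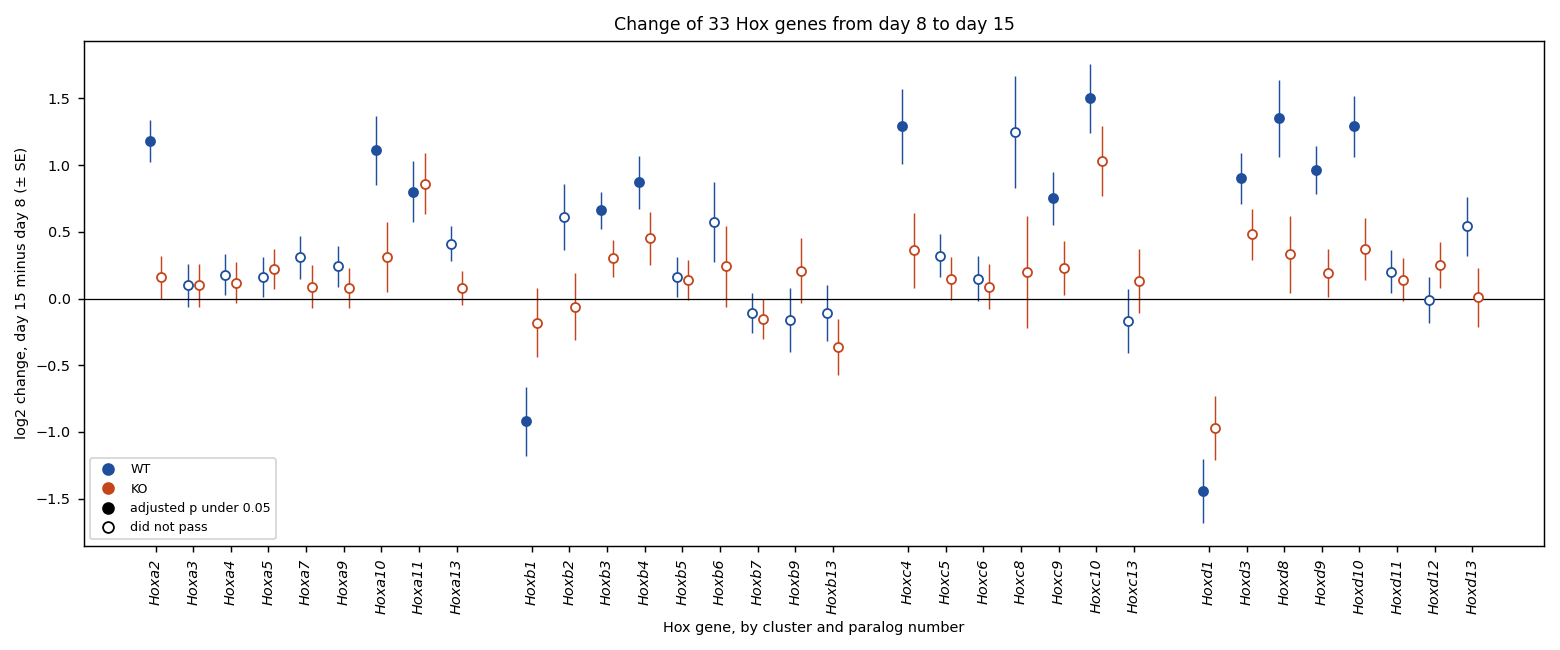
Log2 change from day 8 to day 15 (y axis, bars SE) of the 33 Hox genes, ordered by cluster and paralog number (x axis), in WT (blue) and KO cells (red); filled points passed at an adjusted p under 0.05. 14 WT points and no KO point are filled, and the lowest points of both genotypes are those of *Hoxd1* (-1.44 and -0.97).

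The changes of the 2 genotypes were compared directly as an interaction. None of 33 genes was called by limma, with 0.66% of all genes called. The same test of day 15 against day 0, whose arrays were scaled apart, called 3 of 33 genes below 0, where 3.51% of all genes were. For day 15 against day 8 there were 5 at an unadjusted p under 0.05, against 14.9% of all genes, so that the Hox share was that of all genes. All 5 had a KO change minus WT change below 0, as had 7.23% of all genes at that threshold, and the smallest adjusted p was 0.0953, for *Hoxa2* (-1.02 ± 0.23, KO change minus WT change). The median was -0.26, against 0.00 over all genes, and 25 of 33 were below 0. Without the second WT array of day 8, 7 genes were called, and 5.54% of all genes: *Hoxc8* (-1.8), *Hoxd8* (-1.63), *Hoxc4* (-1.42), *Hoxd10* (-1.38), *Hoxd9* (-1.06) and *Hoxc10* (-0.97) with the smaller rise in KO cells, and *Hoxb1* (1.23), which fell less in them. Without the second WT array of day 15, *Hoxb6* alone was called, where 3.57% of all genes were, about the same share. Whether Hox genes changed less in KO than in WT cells therefore rested on which WT array of day 8 was used.

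The other genes that passed at least 1 test were not called between genotypes at day 8. For 7 of 33 Hox genes both KO arrays lay below both WT arrays, and for 5 above. Of all 18193 genes 3368 lay below and 4941 above. *Hoxb2* read 175 and 203 in WT cells against 111 and 135 in KO cells. *Hoxa2* read 6.5 and 6.46 in WT cells against 5.54 and 7.14 in KO cells. *Hoxb4* read 93.6 and 136 in WT cells against 72.5 and 75.1 in KO cells. Among these anterior genes both KO values were the lower ones for *Hoxb2* and *Hoxb4*, and the genotypes overlapped for *Hoxa2*. *Hoxb3* read 75.3 and 69.3 in WT cells against 68.8 and 64.3 in KO cells. *Hoxd3* read 15.4 and 21.8 in WT cells against 16.7 and 12.6 in KO cells. *Hoxc4* read 45.3 and 89.3 in WT cells against 83.7 and 65.2 in KO cells. Among these anterior genes both KO values were the lower ones for *Hoxb3*, and the genotypes overlapped for *Hoxd3* and *Hoxc4*. *Hoxc8* read 58.3 and 167 in WT cells against 83.7 and 56.0 in KO cells. *Hoxd8* read 49.4 and 116 in WT cells against 67.3 and 71.9 in KO cells. Among these middle genes the genotypes overlapped for *Hoxc8* and *Hoxd8*. *Hoxa10* read 9.6 and 17.4 in WT cells against 12.0 and 10.3 in KO cells. *Hoxc10* read 44.5 and 88.9 in WT cells against 49.98 and 38.7 in KO cells. *Hoxd9* read 102 and 154 in WT cells against 111 and 106 in KO cells. Among these posterior genes the genotypes overlapped for *Hoxa10*, *Hoxc10* and *Hoxd9*. *Hoxd10* read 13.9 and 26.2 in WT cells against 22.9 and 21.9 in KO cells. *Hoxc9* read 71.7 and 115 in WT cells against 98.6 and 96.5 in KO cells. *Hoxa11* read 27.6 and 31.9 in WT cells against 30.5 and 26.2 in KO cells. Among these posterior genes the genotypes overlapped for *Hoxd10*, *Hoxc9* and *Hoxa11*.

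At day 0 the same genes were read on arrays of another scale, so their values can be set against each other only within that day, and none was called. For 13 of 33 Hox genes both KO arrays lay above both WT arrays, and for 2 below. Of all 18193 genes 5684 lay above and 3182 below. *Hoxb2* read 82.5 and 98.7 in WT cells against 83.4 and 111 in KO cells. *Hoxa2* read 42.3 and 44.6 in WT cells against 42.4 and 44.1 in KO cells. *Hoxb4* read 122 and 149 in WT cells against 149.7 and 154 in KO cells. Among these anterior genes both KO values were the higher ones for *Hoxb4*, and the genotypes overlapped for *Hoxb2* and *Hoxa2*. *Hoxb3* read 132 and 141 in WT cells against 144 and 168 in KO cells. *Hoxd3* read 40.1 and 38.3 in WT cells against 40.9 and 43.3 in KO cells. *Hoxc4* read 80.27 and 80.38 in WT cells against 80.43 and 117 in KO cells, so the lower KO value barely exceeded the WT values. Among these anterior genes both KO values were the higher ones for *Hoxb3*, *Hoxd3* and *Hoxc4*. *Hoxb1* read 37.1 and 38.5 in WT cells against 42.1 and 46.2 in KO cells. *Hoxd1* read 24.5 and 22.2 in WT cells against 24.9 and 27.5 in KO cells. Among these anterior genes both KO values were the higher ones for *Hoxb1* and *Hoxd1*. *Hoxd8* read 120.1 and 124 in WT cells against 121 and 129.9 in KO cells. *Hoxb5* read 71.9 and 73.6 in WT cells against 69.1 and 72.2 in KO cells. Among these middle genes the genotypes overlapped for *Hoxd8* and *Hoxb5*. *Hoxa10* read 36.5 and 34.8 in WT cells against 44.1 and 48.6 in KO cells. *Hoxc10* read 116 and 106 in WT cells against 121 and 133 in KO cells. *Hoxd9* read 68.0 and 57.4 in WT cells against 74.3 and 79.5 in KO cells. Among these posterior genes both KO values were the higher ones for *Hoxa10*, *Hoxc10* and *Hoxd9*. *Hoxd10* read 46.7 and 45.7 in WT cells against 57.5 and 52.6 in KO cells. *Hoxc9* read 277 and 320.4 in WT cells against 336 and 313 in KO cells. *Hoxa11* read 48.1 and 46.3 in WT cells against 51.9 and 47.9 in KO cells. Among these posterior genes both KO values were the higher ones for *Hoxd10*, and the genotypes overlapped for *Hoxc9* and *Hoxa11*.

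Of the genes called between days 8 and 15 in WT cells, *Hoxa11*, *Hoxb1*, *Hoxc4*, *Hoxc9*, *Hoxd1* and *Hoxd10* were not called between genotypes at day 15. *Hoxb1* read 18.2 and 23.5 in WT cells and 16.0 and 12.6 in KO cells at day 15, a difference of -0.54 ± 0.26. Both KO values were the lower ones for *Hoxb1*. *Hoxc9* read 144 and 163 in WT cells and 129 and 102 in KO cells at day 15, a difference of -0.42 ± 0.20. *Hoxd10* read 51.0 and 42.5 in WT cells and 28.6 and 29.1 in KO cells at day 15, a difference of -0.69 ± 0.23. *Hoxa11* read 44.0 and 60.6 in WT cells and 66.8 and 39.1 in KO cells at day 15, a difference of -0.02 ± 0.23. Both KO values were the lower ones for *Hoxc9* and *Hoxd10*, and the genotypes overlapped for *Hoxa11*.

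The other 12 measured genes passed in none of the 6 tests on any probe set. They were *Hoxa3*, *Hoxa4*, *Hoxa7*, *Hoxa13*, *Hoxb6*, *Hoxb7*, *Hoxb9*, *Hoxb13*, *Hoxc13*, *Hoxd11*, *Hoxd12* and *Hoxd13*. Of these, 7 are posterior, and apart from *Hoxb6* and *Hoxd13* their differences between genotypes at day 15 lay between -0.32 (*Hoxa4*) and 0.39 (*Hoxc13*) at their brightest probe sets.

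Within each array the position of a Hox gene among all probe sets can be set beside that of day 0, as a description only. *Hoxd9* stood at percentiles 29.3, 67.1 and 77.8 of WT arrays at days 0, 8 and 15, and at 35.7, 65.4 and 67.5 of KO arrays. *Hoxd1* stood at 7.06, 54.8 and 30.0 in WT cells and at 8.11, 47.5 and 29.4 in KO cells, highest at day 8 in both. *Hoxb1* peaked likewise in WT cells, at 14.8, 43.3 and 26.2, but stood at 18.0, 18.8 and 15.6 in KO cells. Of 33 genes, 24 stood higher on both WT arrays of day 15 than on both of day 0, and 5 lower, against 42.7% and 44.5% of all genes.

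The counts of the gene lists that follow are to be read against the 8.31% of all genes called lower and the 8.77% called higher at day 15. Of the partners of Hox proteins, 2 of 8 measured genes were lower in KO cells at day 15 and none was higher, with a median difference of -0.37 against 0.04 over all genes. *Meis2* read 1383 and 1184 in WT cells and 375 and 519 in KO cells (-1.54 ± 0.28, adjusted p = 0.00581), and at day 8 it was likewise lower (-1.50 ± 0.28). *Meis1* read 389 and 388 in WT cells and 126 and 186 in KO cells (-1.34 ± 0.37, adjusted p = 0.0424). In WT cells *Meis1*, *Meis2*, *Pbx2* and *Pknox1* (which encodes Prep1) rose from day 8 to day 15.

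Of 15 measured genes of retinoic acid synthesis, response and breakdown, 3 were lower and 2 higher in KO cells at day 15 (median -0.28). The lower ones were the receptor *Rarb* (264 and 165 in WT, 37.1 and 61.4 in KO cells, -2.13 ± 0.31) and the synthesis enzymes *Aldh1a1* (-1.71 ± 0.41) and *Aldh1a2* (-1.19 ± 0.16). *Cyp26a1*, which breaks retinoic acid down, read 206 and 425 in WT cells and 1690 and 1571 in KO cells (2.46 ± 0.37, adjusted p = 0.00291), and the receptor gene *Rxrg* was also higher (0.56 ± 0.13). *Aldh1a2* was the one gene of this list called at day 0, where it was higher in KO cells (1.69 ± 0.16). At day 8 none was called, and *Rarb* had a difference of -0.83 ± 0.31.

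Of 8 caudal factors and axial signals, 2 were higher in KO cells at day 15 and none was lower (median 0.14). *Fgf8*, a signal of the primitive streak and tail bud, read 47.2 and 58.8 in WT cells and 379 and 307 in KO cells (2.69 ± 0.43, adjusted p = 0.00435). *Nkx1-2*, a gene of tail bud progenitors, differed by 1.24 ± 0.30. *Cdx2* differed by -0.60 ± 0.19 (adjusted p = 0.0575), *Cdx1* by 0.33 ± 0.21 and *Cdx4* by 0.12 ± 0.23, and none of these passed. The hindbrain regulators *Egr2* and *Gbx2*, the 2 of that list measured, differed by -0.10 ± 0.20 and 0.63 ± 0.22 at day 15 and did not pass.

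Of 25 measured chromatin regulators of the clusters 4 were called higher in KO cells at day 15 and none lower. They were 1 of 9 genes of Polycomb complex PRC2 (*Eed*, 0.89 ± 0.14), 1 of 9 of PRC1 (*Phc1*, 1.8 ± 0.18) and 2 of 7 of the Trithorax (MLL) complex (*Wdr5*, 0.66 ± 0.14, and *Psip1*, 0.87 ± 0.16). The medians of these lists were 0.08, -0.06 and 0.29. In WT cells from day 8 to day 15, 7 of the 25 fell, *Eed*, *Phc1*, *Wdr5* and *Psip1* among them, and *Cbx8* rose. The PRC2 enzyme gene *Ezh2* differed by -0.49 ± 0.20 (adjusted p = 0.152).

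Of 13 measured homeobox genes of the head, 3 were higher and 1 was lower in KO cells at day 15 (median 0.36). *Otx2*, a forebrain and midbrain gene, read 81.1 and 118 in WT cells and 1037 and 959 in KO cells (3.35 ± 0.39, adjusted p = 0.000932). *Hesx1* differed by 2.37 ± 0.18 and *Rax* by 0.57 ± 0.15, and *Lhx2* by -0.76 ± 0.18. *Otx2* and *Hesx1* are known from the early epiblast as well as from the head. Of 6 ParaHox, Evx and Mnx genes, *Mnx1* was higher in KO cells at day 15 (1.07 ± 0.20). *Evx1*, the neighbour of *Hoxa13*, was lower at day 8 (469 and 226 in WT, 75.7 and 75.5 in KO cells, -2.11 ± 0.34, adjusted p = 0.0239).

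Markers of several cell types also differed between genotypes, some in the direction of the Hox genes and some in the other. At day 15, 8 of 14 fibroblast and mesenchyme markers were lower in KO cells and none was higher (median -1.69), and their summed intensity was 61707 to 80701 in WT cells and 14059 to 20258 in KO cells. At day 8 the sum was 10919 on the first WT array and 34117 on the second, and 7349 to 7649 in KO cells. The second WT array was also the one with more of the later Hox genes. Other lists split these WT arrays too. On the first and the second, blood markers summed to 165 and 956 and endoderm markers to 2833 and 5788. Primitive streak markers (5238 and 2298) and neural markers (1878 and 1290) went the other way. Of 6 lateral plate and limb markers 3 were lower in KO cells at day 15 (*Tbx4*, *Hand2* and *Pitx1*, list median -0.92), with sums of 2580 to 3567 in WT cells and 697 to 1019 in KO cells. Of 10 ES cell markers 8 were higher in KO cells (median 2.39), with sums of 2713 to 7990 in WT cells and 18295 to 19419 in KO cells, and of 9 neural markers 4 were higher and 1 was lower. Lower in KO cells were also 4 of 5 endothelial, 3 of 5 blood, 3 of 6 endoderm and 2 of 5 intermediate mesoderm and kidney markers (1 of the last was higher), while 0 of 5 cardiac muscle markers passed and 1 of 8 primitive streak markers was higher. No intensity in the table is 0. The part of these cell types in the Hox differences was not tested.

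**Figure D4:**
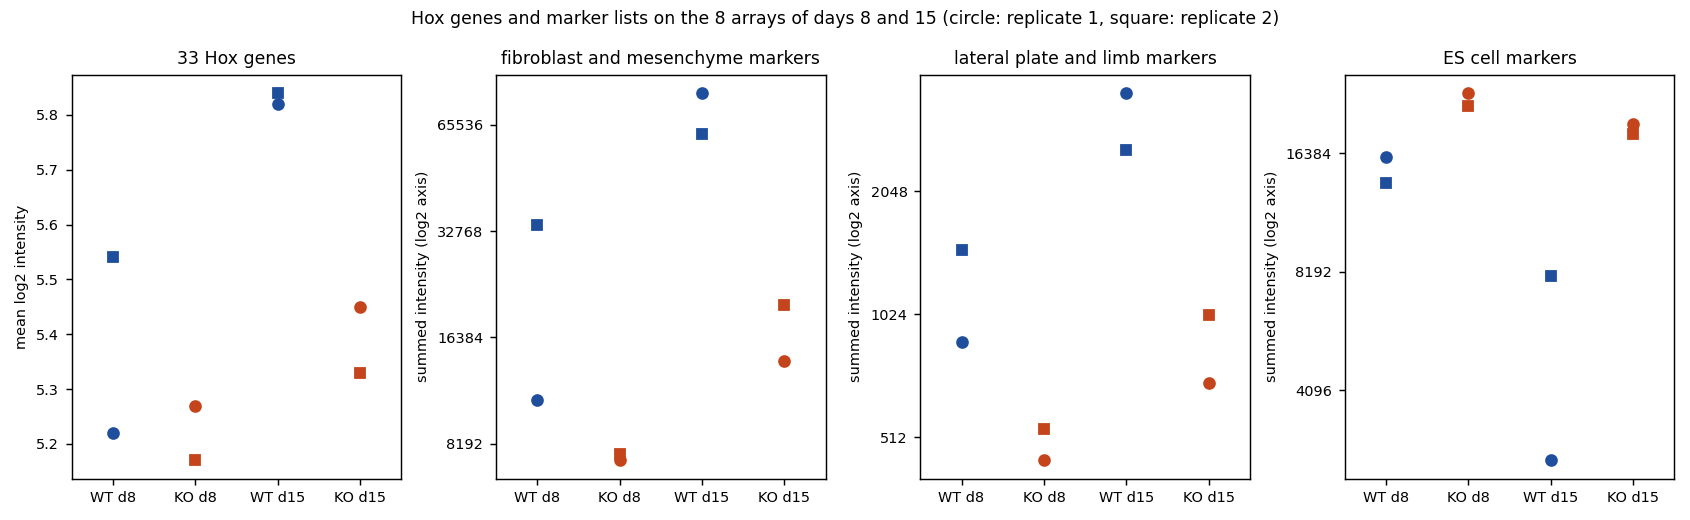
Mean log2 intensity of the 33 Hox genes (left) and summed intensities of 3 marker lists (log2 axes) on the 8 arrays of days 8 and 15, WT blue and KO red, circles replicate 1 and squares replicate 2. The Hox mean was 5.82 and 5.84 on the WT arrays of day 15 and 5.45 and 5.33 on the KO arrays, and the second WT array of day 8 lies above the first in the Hox, fibroblast and lateral plate panels.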

How the data were processed

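The 12 deposited columns hold linear intensities, 1 per probe set and array, that the authors scaled. CapitalBio ran the arrays with software of its own, per the paper's methods. MAS5 is named in the submitters' processing notes, while no source used here gives its version or settings. Decimals, lowest values and medians show that day 0 was scaled apart. Detection calls were not used here, and array number limits the precision.

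Of 45101 rows, 64 controls of the manufacturer were left out. Symbols came from GEO's platform annotation, where 34945 probe sets carry 1 symbol. A gene was read at the probe set with the highest mean log2 intensity over the 12 arrays among those carrying its symbol alone. Values under 1 were raised to 1 and log2 was taken. R 4.3.3 with limma 3.58.1 (statmod 1.5.0) fitted 6 group means, with trend and robust moderation and without a block. Two-sided p-values were adjusted across the 45037 probe sets by the Benjamini-Hochberg method. The 1.8-fold rule of the methods was applied to linear group means. The fit was tested on simulated data. Python 3.11.15 served for tables (pandas 2.3.3, numpy 2.4.6) and for figures (matplotlib 3.10.9), and promoter windows are those of RefSeq.

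The family, the gene lists and the tests were chosen with earlier results of these data known. Values on every array are given for each Hox gene that passed at least 1 of the 6 tests at its brightest probe set, by position group and size of difference, and the others by ranges and counts; of other lists, up to 4 members that passed with the largest KO difference at day 15, or the 2 brightest. Examples beyond this serve to describe a list. The alternatives changed the scale (32 added before log2, quantile or median normalization), the fit (plain moderation, replicate block, arrays of 1 comparison alone, the methods' t-test, each array left out), the features (brighter probe sets, mean over those of a gene) or the threshold (adjusted p of 0.1, 2-fold). Counting a gene by any probe set was added after the values were seen.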

Additional observations from a re-analysis of the deposited data

Results flagged for a closer look

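The difference between KO and WT cells was tested for a change between days in the same limma fit, a test added after the values were seen. It grew from day 0 to day 15 for *Hoxa2* (-1.05 ± 0.23, adjusted p = 0.027), *Hoxb4* (-1.20 ± 0.28, adjusted p = 0.0382) and *Hoxd9* (-1.27 ± 0.26, adjusted p = 0.0214), which are 3 of 33 genes at their brightest probe sets, where 3.51% of all genes were called in this direction, and for the dimmer probe set of *Hoxb3* (-1.44 ± 0.28, adjusted p = 0.018). Each value is the KO minus WT difference of day 15 less that of day 0. Because the day 0 arrays were scaled apart, a change of scale that bends the log values would enter these numbers, which was not tested. No Hox gene passed for day 8 against day 0, where the smallest adjusted p was 0.259, for *Hoxb1*.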

How the results depend on the processing

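Of 41 calls of single Hox probe sets, none changed direction under any setting tried. The methods' t-test after adjustment called 0 Hox genes in each comparison it was run on, so no call held in every setting. With 2 arrays per group and adjustment across all probe sets, that test had little chance to pass any call. It therefore does not tell stable calls from unstable ones. Most calls were lost in other settings too. Those lost in no other setting were the day 15 calls of *Hoxa2* and of the dimmer probe set of *Hoxb3*, and the rise of *Hoxa2* in WT cells. *Hoxa2* was read near the bottom of the array. Fitting only the arrays compared lost 26 of the 41, an offset of 32 lost 5 and quantile normalization lost 4. Further calls were lost when 1 array was left out. With 2 arrays per group this limits every count. Without adjustment the methods' t-test called 1 Hox gene at day 0, 2 at day 8 and 8 at day 15. Of all genes it called 8.6%, 9.65% and 17.9% on these days. From day 8 to day 15 it called 3 Hox genes in WT cells and 4 in KO cells, with 12.2% and 12.6% of all genes. At day 8, where the count was 2, an offset of 32, the brighter probe sets and only the arrays compared each gave 0, and no trend or robust moderation gave 1. At day 15, where it was 11, the brighter probe sets, which read 14 of the 33 genes, gave 7. In WT cells from day 8 to day 15, where it was 14, the brighter probe sets gave 8 and only the arrays compared 1, and in KO cells the latter gave 2. The interaction gave 1 at an adjusted p under 0.1. Leaving out 1 array in turn gave 0 to 0 at day 0, 0 to 6 at day 8, 1 to 7 at day 15, 8 to 16 in WT cells, 0 to 0 in KO cells and 0 to 7 for the interaction. Their medians ran from 0.06 to 0.12 at day 0, -0.26 to 0.14 at day 8, -0.51 to -0.32 at day 15, 0.32 to 0.49 in WT cells and 0.16 to 0.25 in KO cells. The median at day 15 was -0.19 with an offset of 32, and that of WT cells 0.22 with the offset and 0.61 for the mean over probe sets. With 32 added, the 1.8-fold rule took 0 genes at day 8 in place of 1, and 3 at day 15 in place of 9. Replicate numbers did not pair the samples (correlations of deviations -0.14 to 0.24 over 15 pairs of groups), and a replicate block gave 1 gene at day 8, 10 at day 15 and 14 in WT cells. Other settings kept the counts within 1.5 times and the medians within 1 SD. The share of all genes is not given here for the brighter probe sets, an offset of 32, plain moderation or the replicate block. It is also not given for an adjusted p under 0.1 or the adjusted t-test. The counts under these settings alone do not tell Hox genes from the whole array.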

Other observations

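Some probe sets that name a Hox locus lay outside the family as defined, because they name several genes or an antisense transcript. Of these 8, the probe set shared by *Hoxb7* and *Hoxb8* read 126 and 71.3 in WT cells and 50.2 and 52.0 in KO cells at day 15, a difference of -0.89 (adjusted p = 0.026), while the probe set of *Hoxb7* alone differed by 0.18 and did not pass. A probe set of *Hoxd3os1*, a transcript antisense in the region of *Hoxd3*, read 42.1 and 64.9 in WT cells at day 8 and 145 and 146 at day 15 (1.48, adjusted p = 0.000667). At day 15 it read 67.0 and 61.4 in KO cells (-1.18, adjusted p = 0.00248), and in KO cells its change from day 8 to day 15 was 0.60 and did not pass. The other probe set of *Hoxd3os1* rose by 0.41 in WT cells (adjusted p = 0.0387), and its KO difference of -0.22 at day 15 did not pass. The probe set of *Hoxb5os* rose by 0.93 in WT cells (adjusted p = 0.00637) and one of *Hoxa11os* by 0.50 (adjusted p = 0.0296), with KO differences at day 15 of -0.56 and -0.41 that did not pass.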
